A study of Mus musculus with 21 samples.

Results

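Fatty acid oxidation and ketone metabolism were followed through 34 genes in RNA from taste buds of the mouse circumvallate papilla, a rear-tongue structure rich in taste cells. The genes were chosen as a named list of shuttle proteins, oxidation enzymes, ketone enzymes, lipid droplet proteins and fasting-responsive regulators; the rule uses no measured value, but the list was drawn up with earlier results of these data known. All 34 were found in the deposited annotation by symbol, each at 1 locus, among 21551 protein-coding symbols. The series holds 21 libraries in 3 groups of 7, labelled Ad lib, Satiated and Hungry, and its design text speaks of mice that were fed, fasted or given food ad libitum. Every mouse was wild type, of the inbred strain C57BL/6J, and 20 to 24 weeks old. No label gives the length of fasting or of refeeding, or says which animal or pool of animals stands behind a library. RNA came from dissected papillae and was copied from its poly(A) tail with oligo(dT) primers.

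Long-chain fatty acids enter mitochondria as carnitine esters, are shortened in repeated rounds of dehydrogenation, hydration, a second dehydrogenation and thiolysis, and pass electrons to the respiratory chain through the electron transfer flavoprotein. Liver turns the resulting acetyl-CoA into ketone bodies during fasting, and other tissues take these up and burn them. Fasting is known to raise many of these genes in liver and muscle through the nuclear receptor PPARα and the coactivator PGC-1α.

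The deposited expression table gives, per locus, 1 mean over all 21 libraries of fragments scaled by a size factor, and 1 variance. It lists the conditions C, F and H, but all 5 value columns carried the same numbers for the 3 conditions, and 0 of 32052 loci were exceptions. So no level of a fed or a fasted group, no value of a single library and no test between groups was obtained for any of the 34 genes. Levels below are mean compatible fragments (those that fit a transcript of the annotation) ± the SD from the authors' variance over n = 21 libraries. The values behave as if that variance was taken within 3 sets of libraries, so differences between the sets are not part of the SD. The coefficient of variation (CV) is that SD divided by the mean. The means add up to 21881979 compatible and 23769781 total fragments over all loci; the depth of single libraries is unknown. Nothing says that libraries came from separate animals, so the SD may be partly technical. In bulk RNA, fewer cells of a type and less RNA per cell cannot be told apart.

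Detection, meaning a mean of at least 10 compatible fragments, was reached by 32 of the 34 genes, against 67.7% of all protein-coding symbols. Of the 34, 30 had at least 100 fragments and 19 had at least 1000, counting all fragments of the locus that holds the gene. No share of all symbols was taken at these levels, and the median over detected loci was 514 fragments. The genes of the 34 under the minimum were Ppara and Fgf21, at 2.59 and 1.65 fragments. A locus of the table can hold several genes, whose fragments then cannot be separated. Among the 34, 19 had a locus of their own, 17 of them detected. A further 10 shared it only with genes not annotated as protein-coding or not matched to the reference (GENCODE M21), and 5 shared it with a protein-coding gene. At these shared loci detection is that of the locus. The 5 were Cpt1b (with Chkb and C730034F03Rik), Acadvl (with Dvl2), Hadha (with Gareml and 3110082J24Rik), Acaa1a (with 5 coding genes, Myd88 among them) and Etfdh (with 4930579G24Rik).

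Levels of different genes are compared here as fragments per kb of the gene's merged reference exons. At a shared locus this value is an upper bound for that length, because all fragments of the locus are assigned to the gene. With the longest transcript as the length, values are equal or higher, such as 411 against 205 per kb for Etfdh. All bounds below are for merged exons unless stated. The median over the 17 detected genes with their own locus was 473 fragments per kb, against 134 per kb over the 8696 detected single-gene loci. Per kb these 17 genes ranged from 3.79 (Angptl4) to 1695 (Etfa). In the order of the 19 genes with their own locus, 12 of 18 neighbouring pairs had overlapping ranges of mean ± SD. The 6 gaps that exceeded the SDs lay below Acaa2, Ucp2, Pnpla2, Slc25a20, Cpt1c and Ppargc1a. This order depends on the length used. By the longest transcript, Plin2 was above Pnpla2, at 490 against 431 per kb, and Ucp2 above Acaa2, at 1251 against 1121.

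**Figure D1:**
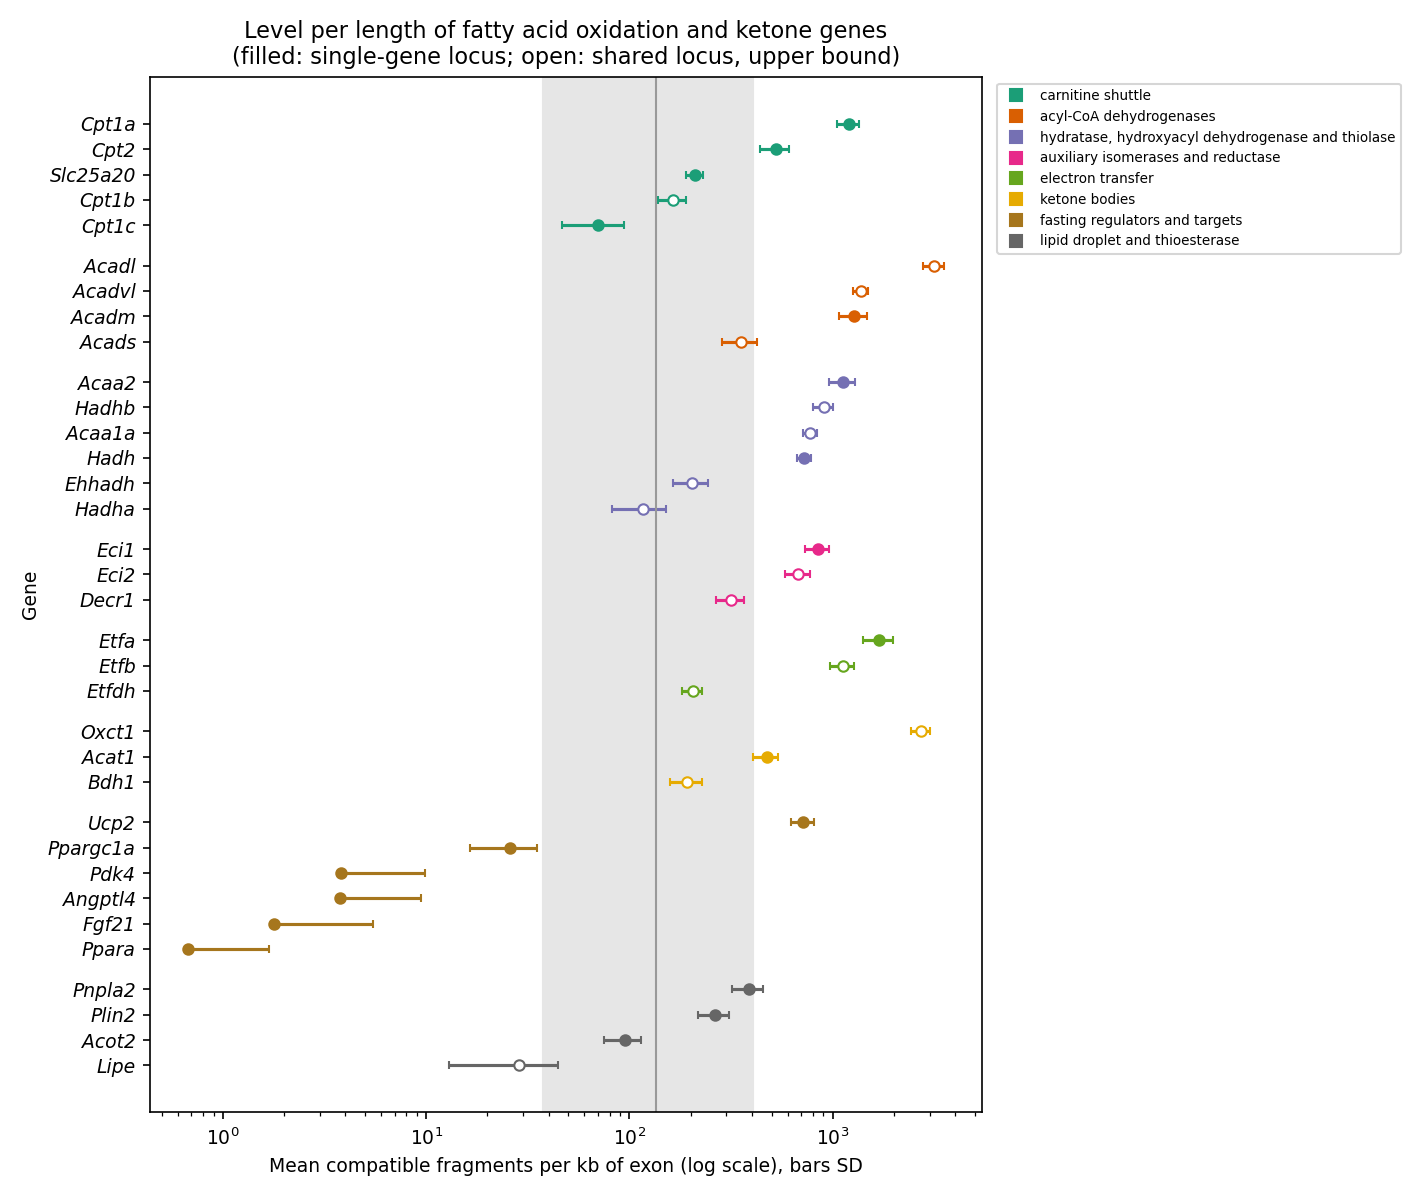
Mean compatible fragments per kb of exon (x axis, log scale) for each of the 34 genes, grouped by role, with bars for the SD over 21 libraries (only the upper bar where the SD exceeds the mean). Filled points are genes with their own locus and open points are upper bounds at shared loci; the grey band spans the middle 50% of 8696 detected single-gene loci and the line their median of 134. Oxidation enzymes sit mostly right of the median, and Pdk4, Angptl4, Fgf21 and Ppara sit far left of the band, at 3.83 per kb or less.

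Sequences before 4 of the genes, and between a divergent pair, are given because these genes carry the contrasts described next: the leading carnitine acyltransferase (Cpt1a), the medium-chain dehydrogenase at a locus of its own (Acadm), a variable kinase gene (Pdk4), a hormone gene near the limit of detection (Fgf21), and the Hadha and Hadhb pair, whose levels were far apart. They come from RefSeq on GRCm38.p6, are read on the strand of the gene, and stop before the first annotated exon. Capitals mark matches on either strand to the GC box GGGCGG, to the CCAAT box, to the TATA box searched as TATAAA, and to the extended nuclear receptor half-site AAGGTCA. The last line is the interval of 85 bases between the annotated starts of Hadha, on the minus strand, and Hadhb, on the plus strand, read on the plus strand.
Cpt1a, chr19:3323051-3323300, plus strand: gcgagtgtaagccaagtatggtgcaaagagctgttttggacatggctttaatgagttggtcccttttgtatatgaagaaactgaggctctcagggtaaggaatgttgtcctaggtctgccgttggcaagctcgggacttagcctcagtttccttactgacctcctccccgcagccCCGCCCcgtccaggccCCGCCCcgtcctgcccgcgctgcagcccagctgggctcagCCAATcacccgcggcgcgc
Acadm, chr3:153944644-153944893, minus strand: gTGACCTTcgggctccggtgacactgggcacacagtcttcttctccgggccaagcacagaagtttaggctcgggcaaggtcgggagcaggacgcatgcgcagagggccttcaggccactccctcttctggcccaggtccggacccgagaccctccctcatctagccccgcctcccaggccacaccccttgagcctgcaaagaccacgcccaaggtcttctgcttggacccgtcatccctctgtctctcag
Pdk4, chr6:5496310-5496528, minus strand: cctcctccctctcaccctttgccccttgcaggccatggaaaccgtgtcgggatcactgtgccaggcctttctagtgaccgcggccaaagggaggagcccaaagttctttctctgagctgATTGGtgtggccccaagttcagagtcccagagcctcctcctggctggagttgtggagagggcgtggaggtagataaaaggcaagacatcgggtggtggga
Fgf21, chr7:45615491-45615740, minus strand: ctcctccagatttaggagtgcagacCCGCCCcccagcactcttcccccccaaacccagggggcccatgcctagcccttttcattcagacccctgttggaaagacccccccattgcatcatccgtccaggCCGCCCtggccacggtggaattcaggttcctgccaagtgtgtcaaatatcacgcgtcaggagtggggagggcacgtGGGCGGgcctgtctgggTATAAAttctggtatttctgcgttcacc
Hadha to Hadhb, chr5:30155163-30155247: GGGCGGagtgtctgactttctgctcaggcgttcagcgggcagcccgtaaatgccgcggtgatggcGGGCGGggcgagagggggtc

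RefSeq promoter windows (250 bases before to 50 after a start) were matched for 29 of the 34 genes, as 31 windows; Cpt1b, Acaa2, Acat1, Decr1 and Angptl4 had no entry. GGGCGG was in 22 of the 31 windows, against 35.7% of all 32851 windows. CCAAT was in 12 of the 31, against 37.4% of all windows. TATAAA was in 1 window, that of Fgf21, against 13.6% of all. AAGGTCA was in 1 window, that of Acadm, against 4.72% of all. The E-box CACGTG was in 3 windows, those of Fgf21, Lipe and Plin2, against 7.15%. The PPAR response element of the direct-repeat type, searched as its consensus, was in 0 of the 31 windows and in 0.0396% of all, and the estrogen-related receptor element TCAAGGTCA, which contains AAGGTCA, in 0 and 0.423%. Median GC content was 60.7% in these windows and 52.7% in all. These matches describe letters in the windows only.

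The carnitine shuttle was led by Cpt1a, the outer-membrane acyltransferase that controls entry of long-chain fatty acids and is the form typical of liver (chromosome 19, 3323301 to 3385732, GRCm38, plus strand). It had 5147 ± 633 fragments, or 1197 ± 147 per kb, higher than 91.5% of detected single-gene loci. Its brain form Cpt1c had 196 ± 66.6 fragments, or 70.3 per kb, so Cpt1a was 17.0 times higher per length. The muscle form Cpt1b reached at most 164 per kb, because its 554 fragments include those of Chkb and C730034F03Rik. Assigning all of them to Cpt1b, Cpt1a still made up 83.6% of the 3 forms per kb, with 11.5% for Cpt1b and 4.91% for Cpt1c. Skeletal muscle markers, 8 of 9 found, ranged from 1.08 (Mb) to 44.1 (Myh2) fragments, with Ckm at 4.24; their part in the Cpt1b level was not tested.

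Downstream in the shuttle, Cpt2, the inner-membrane partner that restores acyl-CoA, had 1251 ± 206 fragments, or 523 ± 86.2 per kb. Slc25a20, the carnitine-acylcarnitine carrier of the inner membrane, had 1014 ± 99.9 fragments, or 209 ± 20.6 per kb. The ranges of mean ± SD of Cpt1a, Cpt2 and Slc25a20 did not overlap.

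Acyl-CoA dehydrogenases begin each round, and each prefers a chain length. Acadl, for long chains, had 6333 ± 733 fragments and at most 3158 per kb, the highest bound of the 34 genes. Acadm, for medium chains, was at a locus of its own (chromosome 3, 153922357 to 153944632, minus strand) with 3738 ± 599 fragments, or 1275 ± 204 per kb. Acadvl, for very long chains, had at most 1374 per kb at a locus shared with Dvl2, and Acads, for short chains, at most 355 per kb from 805 fragments. The bound of Acads lay below the level of Acadm by more than their SDs, so the short-chain gene was below the medium-chain gene. Acadl and Acadvl, as bounds, cannot be placed in that order.

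For the remaining steps, the trifunctional protein of long-chain oxidation is built from the products of Hadha and Hadhb. Both genes are transcribed away from the interval printed above. Hadhb, the thiolase subunit, had 5946 ± 666 fragments, while the whole Hadha locus, with 2 other coding genes, had 622 ± 183. Per kb the bound for Hadhb was 902 and that for Hadha 116, 7.74 times lower. Total fragments, which also count those matching no annotated transcript, were 671 at the Hadha locus, with 92.7% compatible. Hadha, which encodes the hydratase and dehydrogenase subunit, was thus low in total fragments too.

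Hadh, the dehydrogenase for shorter chains, had 3604 ± 298 fragments, or 724 ± 59.9 per kb, and Acaa2, the mitochondrial thiolase, had 1699 ± 243, or 1121 ± 160.1 per kb. Of the peroxisomal enzymes, Ehhadh, a bifunctional hydratase and dehydrogenase, had at most 203 per kb from 614 fragments, and Acaa1a, a thiolase, at most 773 per kb. The locus of Acaa1a also holds 7 other gene symbols, and their fragments are part of its 3412.

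Unsaturated fatty acids need helper enzymes. The isomerase genes Eci1 and Eci2 had 919 ± 126 and 1774 ± 243 fragments, or 843 per kb and at most 678 per kb. By the longest transcript the bound of Eci2 was 1114 per kb and Eci1 stayed at 843, so their order is not settled. Decr1, the dienoyl-CoA reductase, had 1232 ± 195 fragments and at most 318 per kb. All 3 had CVs between 0.137 and 0.158.

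Electrons leave through the flavoprotein subunits Etfa and Etfb, which form a heterodimer, and the membrane oxidoreductase Etfdh. Etfa had 3110.2 ± 511 fragments, or 1695 ± 279 per kb, the highest of the 19 genes with their own locus. Etfb had 1280.3 ± 176 fragments and at most 1124 per kb, its only partner being the microRNA gene Mir7051. The ratio of Etfa to the bound of Etfb was 1.51. Etfdh, with 1536 ± 169 fragments, had at most 205 per kb over 7.5 kb of merged exons.

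Oxct1, the transferase that lets a tissue burn ketone bodies, had 10017 ± 1057 fragments at its locus and at most 2707 per kb, the second highest bound after Acadl (chromosome 15, 4026383 to 4155344, plus strand). The locus also holds BC037032 and Gm15632, neither annotated as protein-coding. Acat1, the mitochondrial acetoacetyl-CoA thiolase used in both directions, had 1777 ± 252 fragments, or 473 ± 66.9 per kb. Bdh1, which interconverts hydroxybutyrate and acetoacetate, had 733 ± 129.6 fragments and at most 193 per kb. Per length the bound for Oxct1 was 5.72 times the level of Acat1. Of 6 hepatocyte markers, Alb had 0.782 fragments and Cps1 and Fgb were listed at 0, while Serpina1a and Ttr had 1369 and 4878, the latter at a locus shared with Dsg2.

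Among the 6 regulators and fasting-induced targets, levels ran from under the detection minimum (Ppara and Fgf21) to 4988 fragments (Ucp2). Ppara, the receptor that drives this programme in liver, had 2.59 ± 3.86 fragments, or 0.676 per kb, the lowest of the 34 genes per kb. Other receptors of its family were higher, with Ppard at 253 fragments, or 54.7 per kb, and Pparg at 91.3, or 46.0 per kb. Ppargc1a, which encodes PGC-1α, had 171 ± 62.1 fragments, or 25.8 per kb. Ucp2, an inner-membrane carrier gene, had 4988 ± 634 fragments, or 714 ± 90.7 per kb.

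Pdk4, a kinase that switches off pyruvate dehydrogenase in fasting, had 13.4 ± 21.4 fragments, or 3.83 per kb. Its relatives Pdk1 and Pdk3 were at 1553 and 1240.4 fragments, or 199.6 ± 27.8 and 484 ± 92.2 per kb. Angptl4, a secreted lipase inhibitor, had 12.5 ± 18.4 fragments, and Fgf21, a fasting hormone of liver, had 1.65 ± 3.46. For Pdk4, Angptl4, Fgf21 and Ppara the SD exceeded the mean, so the mean is not a typical level of a library. From the variance, the library with most fragments held at least 12.1% of the scaled fragments of Pdk4, 10.4% of Angptl4, 10.6% of Ppara and 20.8% of Fgf21, where an even share would be 4.76%. Which libraries these were, and of which group, cannot be read from the table.

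Pnpla2, the first lipase of stored triglyceride, had 1168 ± 207 fragments, or 387 ± 68.5 per kb, and Plin2, a droplet coat protein found in most tissues, 924 ± 159.9, or 263 ± 45.5 per kb. Lipe, the hormone-sensitive lipase, had 129 ± 70.7 fragments and at most 28.6 per kb, 13.5 times below Pnpla2. Acot2, a mitochondrial thioesterase, had 208 ± 43.5 fragments, or 94.7 ± 19.8 per kb. In compatible fragments, the adipocyte markers Adipoq, Cfd and Cidec of 6 were listed at 0, with Plin1 at 0.147, Retn at 0.218 and Lep at 10.6. The loci of Adipoq and Retn were not empty, as their total fragments were 85.5 and 20.3. The part of fat cells in these levels was not tested.

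Spread between libraries was small for most of the genes. The median CV of the 17 detected genes with their own locus was 0.164, against 0.253 over the 8696 detected single-gene loci. Because CV falls with level, the authors' fitted variance, their model of variance at a given mean, gives the fairer reference. Variance exceeded the fitted value in 2 of the 17 genes, Pdk4 and Angptl4, against 27.6% of detected single-gene loci. The median log2 ratio of variance to fitted variance was −0.70 for the genes and −0.62 for those loci. Including shared loci, 4 of 32 detected genes exceeded it, the additional ones being Hadha and Lipe, against 26.1% of the 13467 detected loci. With a running median of the variance over loci of like mean in place of the fitted variance, 10 of the 17 genes lay above, against 50.1% of loci, and the genes' median log2 ratio was 0.11. By the running median, the median log2 ratio of the loci was 0.002, so the references differ in their zero. The medians of the list and of the loci both changed sign with the reference used.

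**Figure D2:**
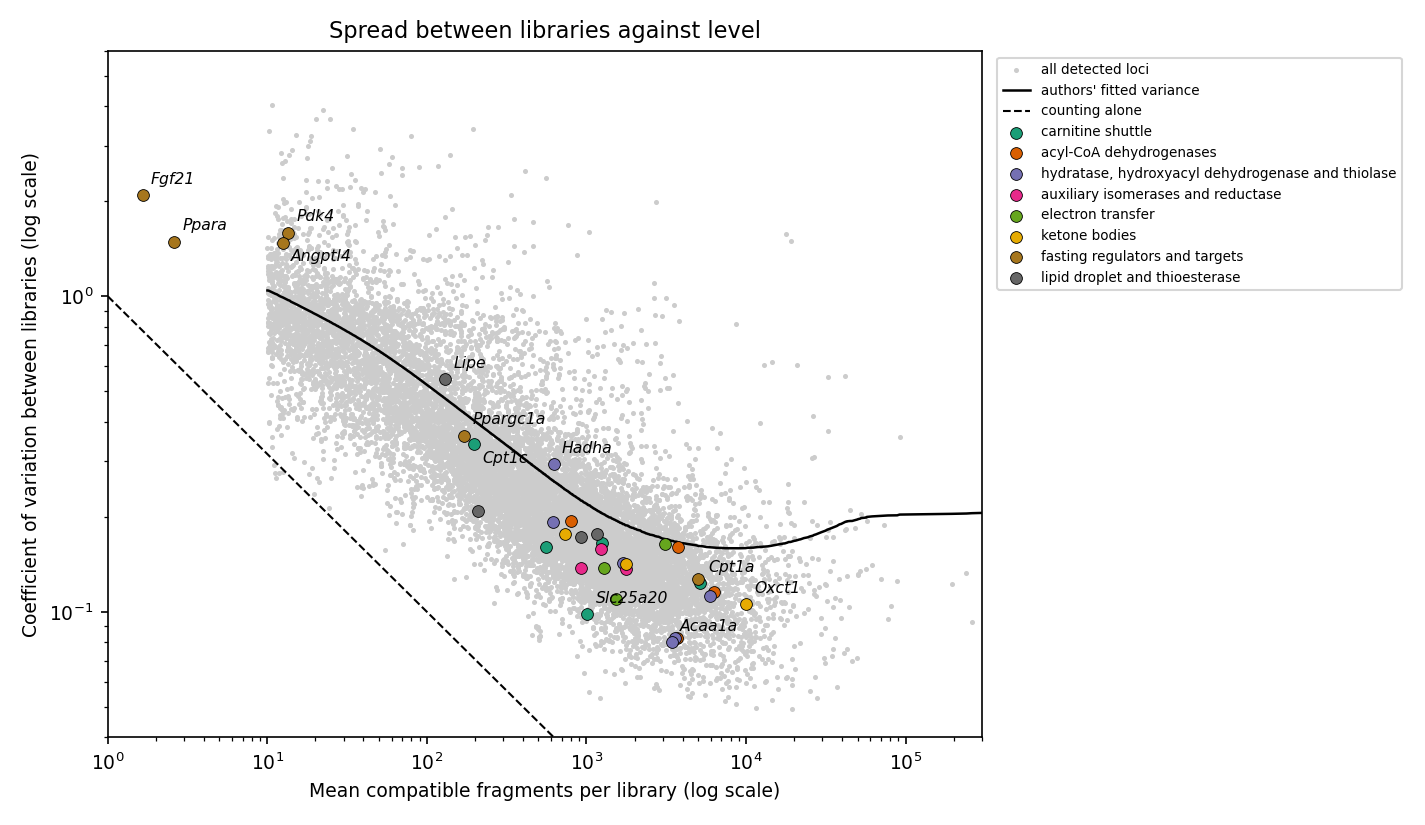
CV between libraries (y axis, log scale) against mean compatible fragments (x axis, log scale) for 13467 detected loci (grey) and the 34 genes (coloured by role), with the authors' fitted variance as a solid line and the spread of counting alone, 1 over the root of the mean, as a dashed line. Most of the genes lie under the solid line, and Pdk4, Angptl4, Lipe and Hadha lie above it; Fgf21 and Ppara lie left of the detection minimum of 10.

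Among the 19 genes with their own locus, Hadh and Slc25a20 had the lowest CVs, 0.0828 and 0.0985. Relative to the fitted variance Slc25a20 was the lowest of these 19, at a log2 ratio of −2.31, followed by Hadh at −2.02. The loci that hold Acaa1a and Acadvl had CVs of 0.0803 and 0.0829, which belong to the sum over all genes of the locus and give no bound for either gene. Acadm and Etfa were closest to the fitted value among oxidation genes with their own locus, at −0.11 and −0.10. The locus that holds Hadha had a CV of 0.294 and a ratio of 0.36, which cannot be assigned to Hadha because Gareml and 3110082J24Rik are part of it. The Hadhb locus had 0.112 and −1.03.

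At the other end stood Pdk4 with a log2 ratio of 1.42 and Angptl4 with 1.15. Their CVs were 1.59 and 1.48, where counting alone at those means would give about 0.273 and 0.283. Lipe followed at 0.40 with a CV of 0.547, against 0.0879 from counting. Below the detection minimum, Fgf21 had a ratio of 0.84 and Ppara of 0.12. In the regulator and target group, 2 of the 4 detected genes exceeded the fitted variance, against 27.6% of detected single-gene loci, while Ucp2 (−0.70) and Ppargc1a (−0.47) did not. Keratinocyte markers varied strongly between the same libraries, all 5 above the fitted variance with CVs from 0.513 to 1.58 and levels from 2637 to 41906 fragments. Of the 4 macrophage markers found, C1qa and C1qb had CVs of 0.790 and 0.811 and lay above the fitted variance. Mrc1 had a CV of 0.311 and lay below it. The locus of Csf1r, at 0.207, also lay below, but it holds the coding gene Hmgxb3, so this value cannot be assigned to Csf1r. The part of such cells in the spread of Pdk4 or Angptl4 was not tested, since no level per library was analysed here.

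**Figure D3:**
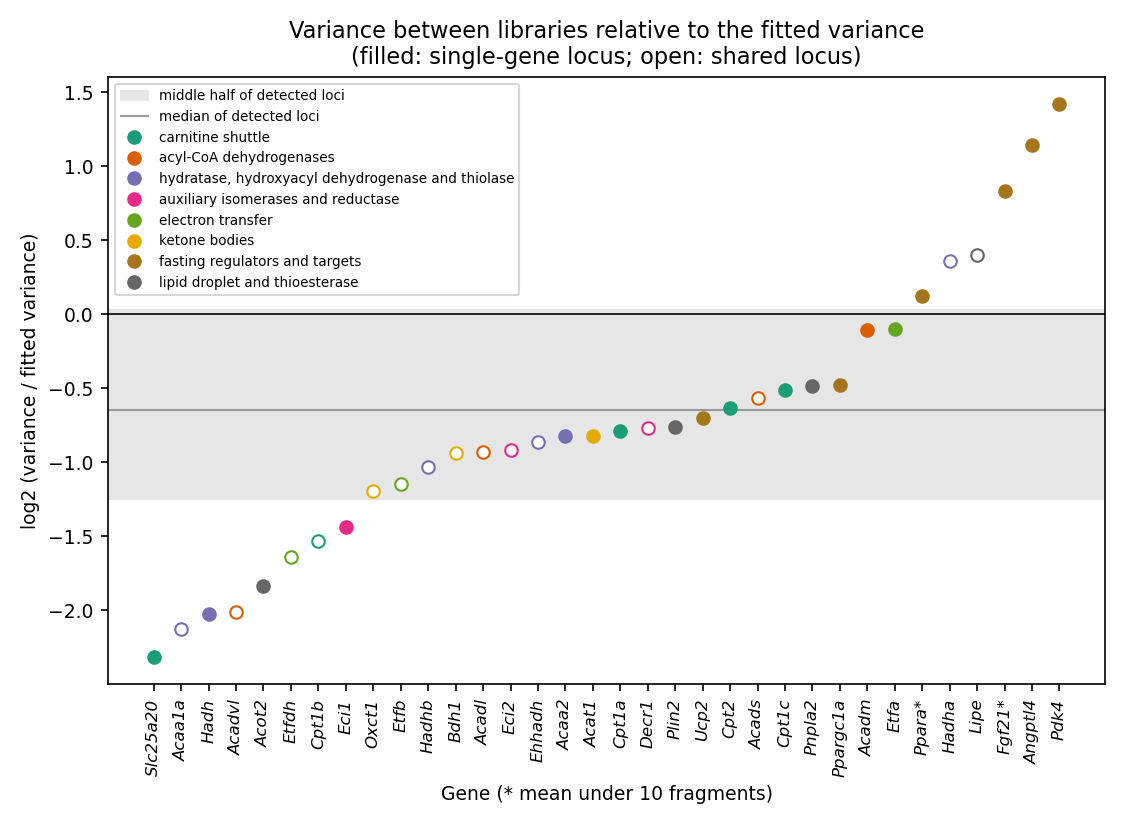
Log2 ratio of the variance between libraries to the authors' fitted variance (y axis) for the 34 genes in rising order (x axis), with open points for shared loci and an asterisk for means under 10. The grey band is the middle 50% of 13467 detected loci and the line their median of −0.65; the genes run from −2.31 at Slc25a20 to 1.42 at Pdk4.

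Most fragments at these loci matched annotated transcripts. The compatible share of total fragments had a median of 98.5% over the 17 genes, against 95.5% over detected single-gene loci, and was at least 90% in all 32 detected genes. Fgf21 and Ppara were different, with shares of 11.1% and 30.2%. In 20 of the 34 genes the authors' assembly lists at least 1 transcript that is no exact match to the reference, up to 9 at Acaa1a. The same held for 43 of the 82 related pathway genes described below, and a share over all genes was not taken. Cpt1a, Cpt1c, Acaa2, Ehhadh, Eci1, Acot2 and Fgf21 each had a single transcript.

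Related pathway genes, 82 in 6 further lists, give the setting. Of these, 71 were detected, against 67.7% of protein-coding symbols, with 36 at a locus of their own and 35 at shared loci, where detection is that of the locus and not shown for the gene. Of the 36, 8 exceeded the fitted variance, against 27.6% of detected single-gene loci. Their median was 165 fragments per kb and their median CV 0.228. For uptake and activation, 12 of 13 were detected, 8 at a locus of their own and 4 at shared loci. The acyl-CoA synthetase genes Acsl5 and Acsl4 had 1452 and 1132 per kb and the fatty acid binding protein gene Fabp5 476 per kb with a CV of 0.699, whereas Fabp4, typical of fat cells, had 0.189 fragments. Of 10 other mitochondrial oxidation genes, 8 were detected at loci of their own, and Acadsb and Acad11 lie at loci shared with coding genes. The 8 were led by Acot13, a thioesterase gene, at 800.3 per kb, Hsd17b10 at 631 and Acot9 at 464.

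Peroxisomal oxidation genes were detected for 14 of 15 members, against 67.7% of protein-coding symbols. Of the 14, 4 had a locus of their own and 10 lay at shared loci. Abcd3, a peroxisomal fatty acid transporter, had 2100.3 per kb, while Decr2 had 316, and Abcd2 was below the minimum at 2.81 fragments. Among 10 other ketone genes 7 were detected, 3 at a locus of their own and 4 at shared loci, against 67.7% of protein-coding symbols. The monocarboxylate transporter genes Slc16a1 and Slc16a7, whose products carry ketone bodies and lactate, had 72.6 and 24.4 per kb. Oxct2a and Bdh2 were among those below the minimum, at 0.507 and 0.0945 fragments.

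Other regulators were detected for 16 of 18 members, against 67.7% of protein-coding symbols. Of the 16, 7 had a locus of their own and 9 lay at shared loci. Mlycd, which removes the malonyl-CoA that inhibits CPT1, had 232 per kb. Creb3l3, a liver factor, had 0.232 fragments, and Ucp1, the uncoupling protein of brown fat, 0.628. For other lipid droplet genes 12 of 16 were detected, 6 at a locus of their own and 6 at shared loci. Plin3 had 448 per kb, Hilpda 170.4 and Dgat2 147.5, and those below the minimum were Plin5 (6.84 fragments), Cidea (2.64), Plin1 and Cidec. By the ratio of variance to squared mean, compatible fragments of Fabp4, Bdh2, Ucp1 and Plin1 came from 1 library of a set of 7. Those of Creb3l3 came from 1 library of a set of 8. Total fragments do not give this ratio at Ucp1 (mean 10.5, CV 0.898), Plin1, Bdh2 and Creb3l3 (CVs 2.28, 3.33 and 3.05).

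**Figure D4:**
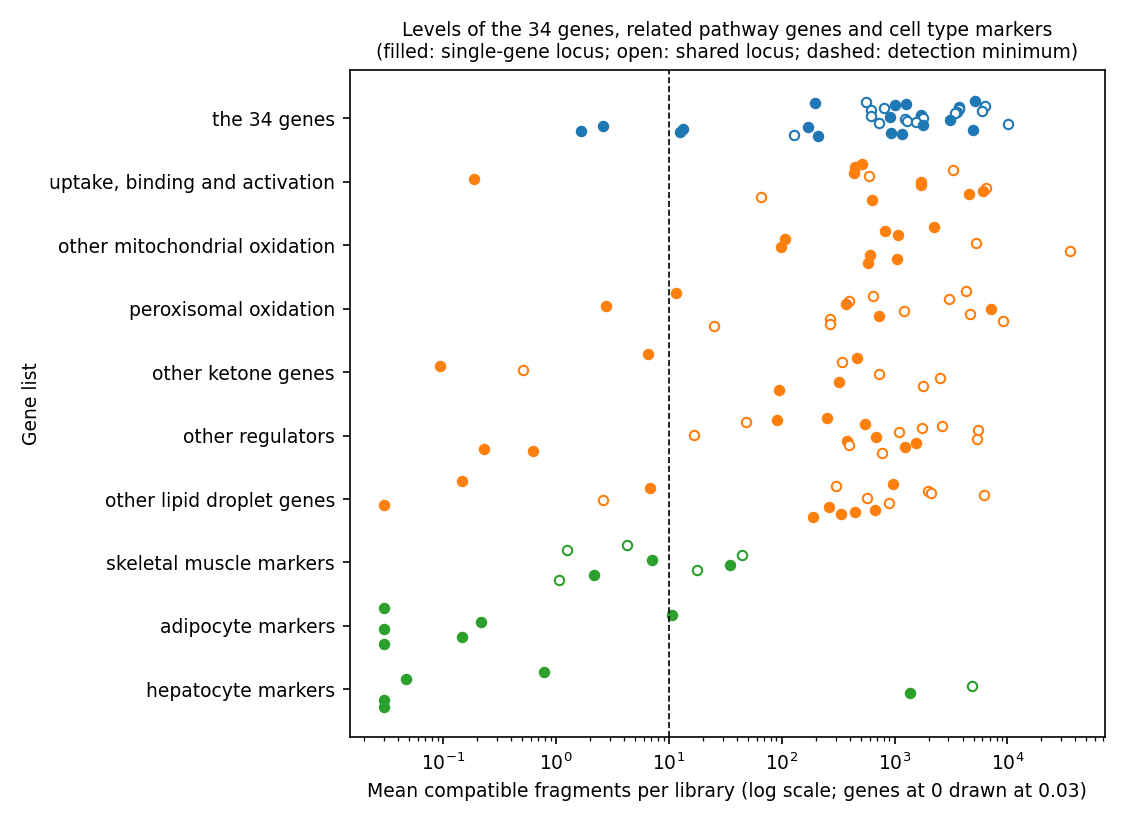
Mean compatible fragments (x axis, log scale, genes at 0 drawn at 0.03) of the 34 genes (blue), 6 lists of related genes (orange) and 3 lists of cell type markers (green), with 1 point per gene, filled for single-gene loci and open for shared loci. The dashed line is the detection minimum of 10; 32 of the 34 genes lie right of it, as do 3 of 8 muscle markers and 1 of 6 adipocyte markers.

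Taste cell markers put these levels in scale. All 5 type II and all 5 type III markers were detected, and 2 of 3 type I markers. Slc1a3, of type I cells, was below the minimum with 9.87 compatible fragments, but had 443 total fragments. At Plcb2, of type II cells, 18.9% of fragments were compatible. Trpm5 and Entpd2 share their loci with the coding genes Tssc4 and Npdc1, so their detection is that of the locus. Levels of the taste markers ran up to 31578 fragments at Rgs21. Per kb, the detected taste markers with their own locus ran from 429 (Plcb2) to 19066 (Gnat3). Among them Pkd2l1, of type III cells, had 1377 ± 269 per kb. Cpt1a had 1197 ± 147 per kb and Ucp2 714 ± 90.7. The keratinocyte markers Krt6a and Krt13 reached 41906 and 17703 fragments, so the RNA held both taste cell and keratinocyte transcripts. In fragments Krt6a was above every taste marker listed. Per kb it had 18575 ± 10420, against 19066 ± 2494 for Gnat3. How the 34 genes divide among taste cell types was not analysed here.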

How the data were processed

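The 34 genes and all other lists were chosen with earlier results of these data known. The build GRCm38.p4 and the tools Cuffdiff, Cufflinks, Bowtie2, TopHat, FastQC and Trimmomatic stand in the submitters' processing notes, without settings. The deposited signal values are, per the file headers, a mean and a variance of fragments per locus from Cuffdiff's variance model, for compatible and for total fragments, with a fitted variance. No division by length was made in them. Values of the 3 conditions were identical, so 1 set was used.

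Genes were placed by the symbols of the deposited merged annotation, partner types came from GENCODE M21 (GRCm38), and lengths are merged exons of transcripts that match the reference. All 34 genes are named; of other lists, the 3 highest per kb at single-gene loci and every undetected gene, and some genes chosen after their values were seen. Values of 3 genes of these other lists are not reported here. No test was run, as the table has no value per library; p-values are absent for that reason. Variances were read as taken within sets of 8, 7 and 6 libraries with divisor 21. This was recognised at 1595 loci with compatible fragments in 1 library (relative tolerance 0.0001). The SD holds counting error and differences between libraries of a set together, not differences between sets; the labels give 7 libraries per group, and how sets relate to groups is not known here. Alternatives covered detection minimum, total fragments, shared loci, transcript length and a running median over 201 loci. The measures were tested on simulated data. Software was pandas 2.3.3 and numpy 2.4.6 under Python 3.11.15, with figures by matplotlib 3.10.9.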

Additional observations from a re-analysis of the deposited data

Results flagged for a closer look

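At Fgf21, 13.3 mean fragments per library lay in the locus without matching its annotated transcript, against 1.65 that did. At Ppara the number was 6.00, against 2.59. Both stood out because fragments outside the annotated transcripts exceeded those within them and also exceeded 3; none of the other 32 genes had this pattern. The table gives no position within a locus for these fragments, and their origin was not tested.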

How the results depend on the processing

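No paired analysis was possible because the table holds no value per library, and leaving out a library could not be done for the same reason. The count of detected genes was 32, and 17 with single-gene loci only. Of these 17, 2 exceeded the fitted variance, and the count was 4 with a minimum of 1 or with any mean above 0, 0 with a minimum of 50, 4 with loci of several genes added and 10 with a running median. The median log2 ratio turned from −0.70 to 0.11 with the running median, and that of detected single-gene loci from −0.62 to 0.002. The median level was 473 per kb and 1168 fragments when not divided by length, which is another unit. Other alternatives, among them one on loci with no protein-coding partner that was chosen after seeing the data, moved a median or count by 1.5 times or less. The Cpt1a share of its family ran from 82.1% to 87.3%. Pdk4 and Angptl4 had means of 13.4 and 12.5 fragments and SDs above the mean, which limits what can be said of them. Counting alone would give CVs of about 0.273 and 0.283, against 1.59 and 1.48.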
